A study of Homo sapiens with 12 samples.

Results

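The comparison described here is that of NRF2 siRNA with control siRNA in H460, a human cell line established from a large cell carcinoma of the lung. The libraries were chosen by their labels, as the 4 H460 libraries of the 12 in the series, which also holds 4 libraries each of the lung adenocarcinoma lines A549 and H2023. RNA was taken 48 h after transfection from cells grown in low glucose DMEM with fetal bovine serum, and polyA RNA was selected before strand-specific library preparation. Every library of the series, control or not, came from cells that carry a KEAP1 mutation; the H2023 libraries were polyA-selected like those of H460 and the A549 libraries were depleted of ribosomal RNA. The control siRNA group held 2 libraries numbered 0 and 1, always given in that order, which the study's methods call biological duplicates. The NRF2 siRNA group held 1 library made with siRNA 28 and 1 made with siRNA 30, so the spread within it includes the difference between the siRNAs. The study asked which transcripts depend on NRF2 in lung cancer cells where NRF2 is permanently active. H460 is a single line with no KEAP1-intact counterpart among these libraries.

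NRF2, encoded by NFE2L2, is a transcription factor that KEAP1 and the CUL3 ubiquitin ligase keep low in unstressed cells. When oxidants, electrophiles or a KEAP1 mutation free it, NRF2 pairs with a small MAF protein and binds antioxidant response elements near its target genes. Those targets make glutathione, reduce thioredoxin and peroxides, clear quinones and carbonyls, handle heme and iron and regenerate NADPH, and in lung cancer their permanent expression is known to favour growth and drug resistance.

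The core of the antioxidant response element was searched as TGACNNNGC, or GCNNNGTCA on the other strand, in the 200 bases before each start in the RefSeq promoter table, whose build is GRCh38. Of the 39 genes of the NRF2 regulator and target lists that fell in H460, NFE2L2 included, 31 had a promoter in that table, and 12 of their 44 promoters (27.3%) held the motif while 32 did not. It was in 123 of 1021 promoters of all genes that fell, in 96 of 1081 (8.88%) of genes that rose, in 10.1% of those of all genes tested and in 9.23% of the whole table, given as a description. The sites are shown for 6 of the 11 genes that held it, chosen for their different roles and after the sites were seen. Each run is 29 bases, 5′ to 3′ on the strand of the gene, with the motif in capitals, placed in GRCh37 by exact match of the promoter.
GCLM, chr1:94375002-94375030, minus strand, motif starting 34 bases before the start: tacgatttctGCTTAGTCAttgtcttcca
SLC3A2, chr11:62649124-62649152, plus strand, motif starting 37 bases before the start: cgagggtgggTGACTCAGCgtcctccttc
TXNRD1, chr12:104609448-104609476, plus strand, motif starting 99 bases before the start: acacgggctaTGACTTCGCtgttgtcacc
TXNRD1, chr12:104680698-104680726, plus strand, motif starting 102 bases before the start: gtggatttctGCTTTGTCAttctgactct
ME1, chr6:84140889-84140917, minus strand, motif starting 137 bases before the start: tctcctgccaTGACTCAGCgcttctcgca
GSTP1, chr11:67351207-67351235, plus strand, motif starting 66 bases before the start: gccggcgccgTGACTCAGCactggggcgg
KEAP1, chr19:10613460-10613488, minus strand, motif starting 31 bases before the start: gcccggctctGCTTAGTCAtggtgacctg
KEAP1, chr19:10613483-10613511, minus strand, motif starting 54 bases before the start: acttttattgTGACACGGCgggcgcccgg
The site in ME1, SLC3A2 and GSTP1 has the same 9 letters, TGACTCAGC, which also contain the AP-1 motif TGACTCA, and the nearest sites in GCLM and KEAP1 share GCTTAGTCA. The sites in the other 5 genes have neither run of letters. They are TGACCAAGC in ABCB6, TGACGCAGC in CEBPB, GCTGTGTCA in CYP4F11, GCGGGGTCA in FBXO30 and GCGAGGTCA in FECH. TXNRD1 has a site before each of 2 annotated starts. A match is not evidence of binding, and no binding data were used here.

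The 4 libraries were close in relative depth, at 92.9% to 107% of the first control library as read from the steps between low FPKM values, and the number of reads is not given. Between 12732 and 13430 genes reached 1 FPKM, with more in both NRF2 siRNA libraries than in either control. Transcripts of the mitochondrial genome took 8.56% and 13.1% of the FPKM sum in the control libraries and 20.8% and 26.0% with siRNA 28 and siRNA 30. The nuclear retained RNAs NEAT1 and MALAT1 rose as well, NEAT1 from 192 and 147 FPKM to 760.5 with siRNA 28 and 558 with siRNA 30 and MALAT1 from 14.7 and 17.05 to 74.7 with siRNA 28 and 89.5 with siRNA 30. The FPKM sums were 744460 and 708050 in the controls, 692550 with siRNA 28 and 833030 with siRNA 30. The deposited values were thus not shares of a fixed sum. The median change of all genes tested was -0.01 on the log2 scale as deposited and 0.04 with median of ratios scaling. Rescaling without mitochondrial transcripts, which returned each library to its own FPKM sum, moved it to 0.18. Calls that change under that rescaling below include this upward shift. The cells kept the keratins KRT8 (553 and 673 FPKM in the controls, 990.1 with siRNA 28 and 1723 with siRNA 30) and KRT18 (299.6 and 298, then 483 with siRNA 28 and 419 with siRNA 30), whereas EPCAM and CDH1 stayed at or below 1.19 FPKM in every library. Markers of adenocarcinoma (NKX2-1, NAPSA, SFTPB, SFTPC), of squamous carcinoma (TP63, KRT5, KRT14, DSG3) and of blood, endothelium and liver (PTPRC, CD3E, LYZ, VWF, CDH5, ALB) were all below 0.4 FPKM. Of the 12 markers of other cell types 11 had a row, and they summed to 8.22 and 11.5 FPKM in the controls and to 29.3 and 35.0 with siRNA 28 and siRNA 30. Only COL1A1, CD14 and COL3A1 of these passed the filter; CD14 rose from 1.77 and 5.49 FPKM to 17.6 with siRNA 28 and 19.4 with siRNA 30 and COL1A1 from 1.81 and 2.06 to 5.94 with siRNA 28 and 5.81 with siRNA 30, and their part in the results was not tested. In bulk RNA, fewer cells of a kind and less RNA per cell cannot be told apart.

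NFE2L2 itself checked the labels. The gene (chr2:178083395-178257484 in GRCh37) was at 144 and 99.5 FPKM in the control libraries and at 6.54 with siRNA 28 and 12.2 with siRNA 30, a log2 change of -3.60 ± 0.34 (SE, adjusted p = 0.0111 in limma). KEAP1, the adaptor that marks NRF2 for degradation and is itself mutated in these cells, fell from 91.6 and 90.4 FPKM to 28.02 with siRNA 28 and 30.02 with siRNA 30 (log2 change -1.62 ± 0.20, adjusted p = 0.0158). In both genes the siRNA libraries lay below the controls with no overlap. SQSTM1, the autophagy receptor that competes for KEAP1, was at 1392 and 1127 FPKM against 301 with siRNA 28 and 137 with siRNA 30 (log2 change -2.62 ± 0.40), and MAFG, a DNA-binding partner of NRF2, at 44.2 and 38.9 against 9.45 with siRNA 28 and 18.4 with siRNA 30 (-1.58 ± 0.33). Of the 15 regulators and partners tested, 5 fell and 0 rose, CEBPB being the fifth, and 6 were lower and 1 higher at an unadjusted p under 0.05. The related factors NFE2L1 and NFE2L3 and the repressor BACH1 did not pass the test, with log2 changes of 0.59, 0.06 and 0.29.

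Across 13446 genes tested, 922 were lower with NRF2 siRNA (6.86%) and 957 were higher (7.12%) by limma with an adjusted p under 0.05. In all 1879 the siRNA libraries lay on 1 side of both controls, as they did in 8425 of the 13446 genes tested (62.7%). The called changes were at least 0.80 in size on the log2(FPKM + 1) scale, with a median size of 1.30 among genes that fell and 1.43 among those that rose. Protein-coding genes made up 839 of the lower and 844 of the higher genes. Without the control library numbered 0 or the one numbered 1, nearly every call was lost, while all 1879 genes kept their direction. Such a fit takes its spread from the 2 siRNA libraries alone. Their median replicate SD was 0.25 on the log2 scale, against 0.16 for the controls. That fit therefore cannot show whether the counts rest on the control values. AC025678.1, a short gene annotated as a microRNA, was at 249 and 360.3 FPKM in the controls and listed at 0 with both siRNAs. It passed the filter only through the controls, and its 2 equal siRNA values add no spread to such a fit. Rescaling without mitochondrial transcripts gave 584 lower and 1410 higher genes. With no filter on low values, over 29735 genes, 0 were called in limma and 5603 had an unadjusted p under 0.05.

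Lists of genes with known roles held 249 of the 922 lower genes (27.0%) and 80 of the 957 higher genes (8.36%). Of all genes tested, 9.21% were in a list, and 1550 of the 1879 called genes were in none. The plot of list shares sets each list beside the 6.86% and 7.12% of all genes. In 21 of 50 lists with at least 3 members tested, leaving out the lists of markers that check cell identity, 20% or more of the members fell, and in 9 lists 20% or more rose.

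**Figure D1:**
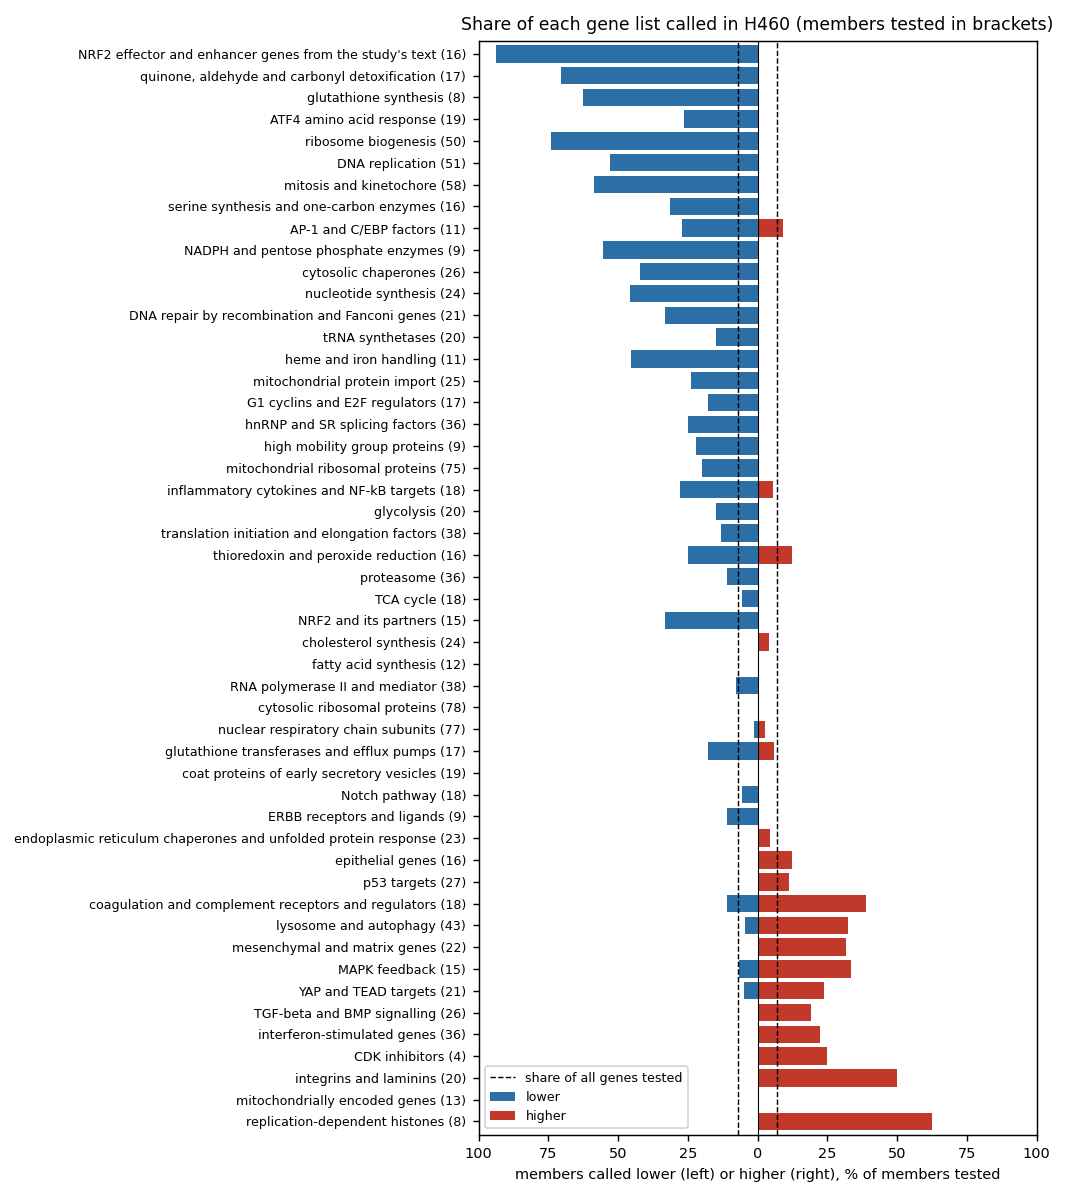
Share of the members of each gene list that fell (left, blue) or rose (right, red) with NRF2 siRNA in H460, in percent of the members tested, whose number stands in brackets. Dashed lines mark the shares among all genes tested, 6.86% and 7.12%, and lists are ordered by their median log2 change. Ribosome biogenesis (37 of 50) and quinone and carbonyl detoxification (12 of 17) reach far to the left, and integrins and laminins (10 of 20) to the right. The lists were chosen with earlier results of these data known.

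The canonical NRF2 program fell broadly. Of 93 genes tested in 7 lists of NRF2 regulators and targets, 39 fell and 3 rose, with a median log2 change of -0.82 against -0.01 for all genes tested. In glutathione synthesis 5 of 8 fell: GCLM, the modifier subunit of the rate-limiting ligase, went from 60.1 and 70.2 FPKM to 2.71 with siRNA 28 and 3.51 with siRNA 30 (log2 change -4.01 ± 0.25, adjusted p = 0.00448), and the catalytic subunit GCLC from 155 and 100.6 to 22.7 with siRNA 28 and 15.9 with siRNA 30 (-2.65 ± 0.30, adjusted p = 0.0127). The cystine transporter SLC7A11 was at 51.99 and 53.98 FPKM against 14.3 with siRNA 28 and 9.32 with siRNA 30, and glutathione reductase GSR at 395 and 371 against 85.9 with siRNA 28 and 130.1 with siRNA 30, both falls. The fifth was SLC3A2, the heavy chain that SLC7A11 pairs with (279.7 and 156 against 61.6 with siRNA 28 and 77.8 with siRNA 30).

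Among 16 genes of thioredoxin and peroxide reduction, 4 fell and 2 rose. SRXN1, the sulfiredoxin that repairs overoxidised peroxiredoxins, dropped from 282 and 320.4 FPKM to 25.9 with siRNA 28 and 21.1 with siRNA 30 (-3.63 ± 0.22, adjusted p = 0.00448), and thioredoxin reductase TXNRD1 from 762 and 761 to 46.8 with siRNA 28 and 121 with siRNA 30 (-3.32 ± 0.43, adjusted p = 0.0162). TXN and PRDX1 fell by log2 changes of -1.77 and -1.61. The peroxidases GPX1 and PRDX5 went the other way, GPX1 from 63.2 and 80.2 FPKM to 241 with siRNA 28 and 176 with siRNA 30 and PRDX5 from 214 and 176 to 397 with siRNA 28 and 378 with siRNA 30.

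Quinone, aldehyde and carbonyl detoxification showed the largest share in the NRF2 group, with 12 of 17 lower, 0 higher (also 0 at an unadjusted p under 0.05) and a median of -1.95. AKR1B10, an aldo-keto reductase (chr7:134212319-134226164 in GRCh37), had the largest fall of any protein-coding gene, from 744 and 665 FPKM to 13.3 with siRNA 28 and 7.72 with siRNA 30 (log2 change -5.98 ± 0.29, adjusted p = 0.00271). AKR1C3 fell from 291 and 332 to 33.2 with siRNA 28 and 30.1 with siRNA 30 and AKR1C2 from 322 and 355 to 33.2 with siRNA 28 and 45.2 with siRNA 30, although the AKR1C genes are nearly identical and the estimate can divide their reads wrongly. The quinone reductase NQO1, the usual reporter of NRF2 activity, was at 979.5 and 1065 FPKM in the controls and 200.4 with siRNA 28 and 346 with siRNA 30 (-1.95 ± 0.32, adjusted p = 0.0215). Prostaglandin reductase PTGR1 (-2.52) and UGDH, which makes UDP-glucuronic acid for conjugation (-3.30), fell in the same range.

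Of 11 heme and iron genes, 5 fell. Ferritin light chain FTL was among the most abundant transcripts in the controls, at 10216 and 9390.0 FPKM, and was at 284 with siRNA 28 and 1896 with siRNA 30 (-3.74 ± 0.83, adjusted p = 0.0365). The difference between the siRNAs in FTL was large, and both values were below both controls. Heme oxygenase HMOX1 was at 30.2 and 35.8 FPKM against 7.51 with siRNA 28 and 5.50 with siRNA 30 (-2.19 ± 0.26, adjusted p = 0.0141), and ferrochelatase FECH, which inserts iron into protoporphyrin to make heme, fell by a log2 change of -1.29.

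Of 9 genes of the pentose phosphate path and NADPH supply, 5 fell and 0 rose, and 0 were higher at an unadjusted p under 0.05. PGD, an NADPH-forming enzyme of the path, was at 1039 and 948 FPKM in the controls and 217 with siRNA 28 and 187 with siRNA 30 (-2.29 ± 0.24, adjusted p = 0.012), and malic enzyme ME1 at 91.8 and 82.7 and 13.8 with siRNA 28 and 7.24 with siRNA 30 (-2.99 ± 0.32, adjusted p = 0.0124). The transketolase TKT (-2.23) and transaldolase TALDO1 (-1.61) fell as well. Glutathione transferases and efflux pumps had 3 of 17 lower (GSTP1, ABCB6 and MGST1), 1 higher (GSTM2) and a median of -0.06 that turned to 0.15 after rescaling without mitochondrial transcripts and after which none of the 3 falls passed. OSGIN1, an oxidative stress-induced growth inhibitor outside these lists, went from 183 and 141 FPKM to 6.25 with siRNA 28 and 5.84 with siRNA 30 (-4.52 ± 0.23, adjusted p = 0.00294).

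**Figure D2:**
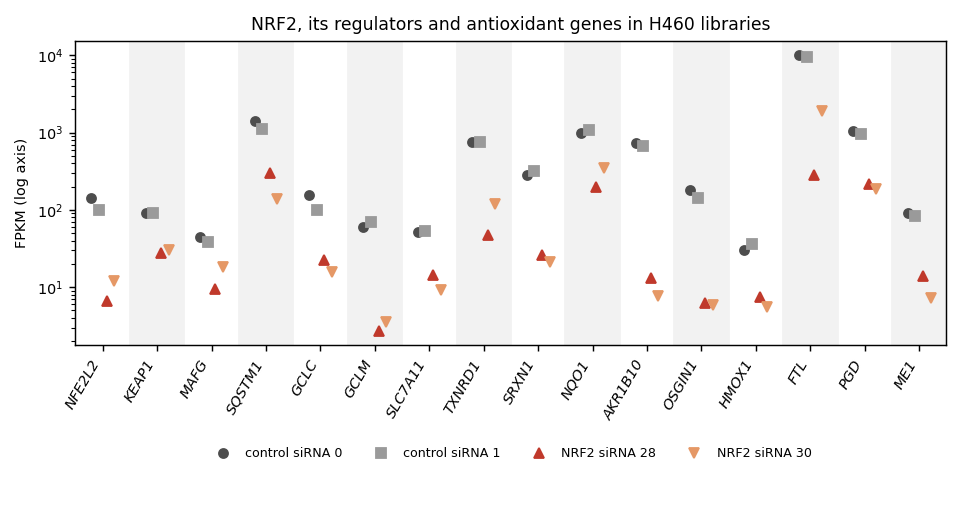
FPKM of 16 genes, NRF2, its regulators and its targets, in each of the 4 H460 libraries on a log axis, with grey symbols for control siRNA and coloured symbols for NRF2 siRNA 28 and 30. For every gene shown both coloured symbols lie below both grey ones. FTL, at 284 and 1896 FPKM, shows a wide gap between the siRNAs.

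A list of 16 genes was put together here from the names of NRF2 effectors and of genes with NRF2-dependent enhancers in the study's text, and is not a set that the study defined. The study chose such genes partly from these libraries, so their direction is not independent evidence. Of the 16, 15 fell, with a median log2 change of -1.98. The orphan nuclear receptor NR0B1 went from 80.01 and 87.4 FPKM to 8.48 with siRNA 28 and 6.97 with siRNA 30 (-3.28 ± 0.23, adjusted p = 0.00601), and the Notch receptor NOTCH3 from 83.9 and 123 to 12.3 with siRNA 28 and 16.2 with siRNA 30 (-2.76 ± 0.28, adjusted p = 0.0118). The thrombin receptor family member F2RL2 was at 41.6 and 39.6 FPKM against 3.52 with siRNA 28 and 4.65 with siRNA 30, and the tyrosine-breakdown enzyme HGD at 18.2 and 11.1 against 0.854 with siRNA 28 and 0.508 with siRNA 30. Neither receptor nor enzyme had a library of 1 group within the range of the other. HPDL, VRK1, SRPK1, FAM20B, NRG4 and PFN2 fell by log2 changes of -2.38, -1.89, -1.55, -1.22, -1.22 and -1.19. The complement receptor C5AR1 did not pass, at 12.5 and 3.84 FPKM in the controls and 0.345 with siRNA 28 and 2.47 with siRNA 30 (adjusted p = 0.0862). The controls differed more from each other than the lower of them did from siRNA 30. NOTCH3 was the only 1 of 18 Notch pathway genes called; 0 rose in limma and 4 were higher at an unadjusted p under 0.05, and the Notch target HES1 was at 2.69 and 3.82 FPKM against 11.8 with siRNA 28 and 6.35 with siRNA 30.

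Genes of ribosome biogenesis fell as well. Of 50 genes for ribosomal RNA transcription, processing and assembly, 37 fell and 0 rose (0 were higher at an unadjusted p under 0.05), the median was -1.21, and all 50 were below the control mean with both siRNAs, as were 38.6% of all genes tested. TCOF1, which supports transcription of ribosomal DNA (chr5:149737192-149779871 in GRCh37), was at 85.2 and 82.1 FPKM in the controls and 18.2 with siRNA 28 and 17.3 with siRNA 30 (-2.17 ± 0.21, adjusted p = 0.0111). The rRNA methyltransferase fibrillarin, FBL, was at 314 and 337 and 87.4 with siRNA 28 and 109.8 with siRNA 30, and the nucleolar helicase DDX21 at 218 and 159 and 51.3 with siRNA 28 and 60.6 with siRNA 30. In these genes the siRNA libraries lay close together and far below the controls. The abundant nucleolar proteins nucleolin and nucleophosmin followed, NCL from 2548 and 2025 FPKM to 739 with siRNA 28 and 781 with siRNA 30 and NPM1 from 2571 and 2385 to 819 with siRNA 28 and 938 with siRNA 30. MYC, the transcription factor best known for driving ribosome production, went from 495 and 299 FPKM to 35.2 with siRNA 28 and 70.1 with siRNA 30 (-2.93 ± 0.40, adjusted p = 0.0168). The mRNAs of the cytosolic ribosomal proteins themselves gave no such calls: of 78 tested, 0 were called in limma, 0 had an unadjusted p under 0.05, and their median was -0.11, or 0.11 without mitochondrial transcripts.

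Of 38 initiation and elongation factors 5 fell (13.2% against the 6.86% of all genes), among them EIF2B3 (-1.18), EIF3J (-1.29) and the helicase EIF4A1 (-1.13). Of 20 tRNA synthetases 3 fell (15.0%), KARS1, IARS1 and EPRS1. At an unadjusted p under 0.05 in limma, 17 of the factors and 15 of the synthetases were lower and 0 of either were higher. With both siRNAs 30 and 19 of them were below the control mean, against 38.6% of all genes tested. Without mitochondrial transcripts 1 of each list was called, and without siRNA 30 also 1 of each, while without siRNA 28 the counts were 11 and 8. Medians were -0.55 and -0.85, or -0.33 and -0.63 without mitochondrial transcripts. Splicing factors had 9 of 36 hnRNP and SR proteins lower, 0 higher (0 at an unadjusted p under 0.05) and a median of -0.75. SRSF7 was at 158 and 169 FPKM against 67.7 with siRNA 28 and 59.3 with siRNA 30, and HNRNPD at 684 and 523 against 269 with siRNA 28 and 234 with siRNA 30; 3 of the 36 were called without mitochondrial transcripts. Of 38 RNA polymerase II and mediator subunits, 3 fell (POLR2F, MED27 and MED1), near the share of all genes.

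Some nuclear genes for mitochondrial ribosomes and protein import fell, 15 of 75 ribosomal proteins and 6 of 25 import components, and the mitochondrial genome's own transcripts took a larger share of the FPKM sum. All 13 protein-coding mitochondrial transcripts were above the control mean with both siRNAs and had a median log2 change of 1.17, yet 0 passed in limma and 7 had an unadjusted p under 0.05. MT-CO1, for example, was at 5437 and 7485 FPKM and 13520.0 with siRNA 28 and 20061 with siRNA 30 (adjusted p = 0.104). In all 13 the highest library was that of siRNA 30. The ribosomal protein and import lists had medians of -0.61 and -0.80, or -0.40 and -0.60 without mitochondrial transcripts. In either list 0 genes were higher (0 and 1 at an unadjusted p under 0.05). MRPL4 was at 98.5 and 105 FPKM against 46.2 with siRNA 28 and 38.6 with siRNA 30, and the outer membrane import pore TOMM40 at 82.1 and 84.4 against 34.5 with siRNA 28 and 25.2 with siRNA 30. Rescaling without mitochondrial transcripts left 7 and 2 lower genes, and leaving out siRNA 28 gave 28 and 13. Respiratory chain subunits gave few calls, with 1 of 77 lower (SDHB), 2 higher (NDUFA13 and NDUFB1) and a median of -0.07 that turned to 0.15 after the rescaling. The counts were 0 lower and 5 higher after the rescaling and 3 lower and 4 higher without siRNA 28.

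DNA replication and mitosis genes fell together. Of 51 replication genes 27 fell and of 58 mitosis and kinetochore genes 34 fell, 0 rose in either list (0 at an unadjusted p under 0.05), and 50 and 57 were below the control mean with both siRNAs. The medians were -1.19 and -1.17. GINS2, part of the replicative helicase (chr16:85709804-85723679 in GRCh37), was at 14.9 and 12.9 FPKM in the controls and 2.80 with siRNA 28 and 1.93 with siRNA 30 (-2.16 ± 0.28, adjusted p = 0.0162), and the helicase subunit MCM4 at 261 and 233 and 92.3 with siRNA 28 and 69.4 with siRNA 30. The origin factor ORC1 and DBF4, which activates the CDC7 kinase, fell by log2 changes of -1.79 and -1.58. In mitosis HJURP, the chaperone that deposits the centromeric histone, was at 112 and 125 FPKM against 25.6 with siRNA 28 and 29.9 with siRNA 30 (-2.06 ± 0.22, adjusted p = 0.012), and CDC20, the activator of the anaphase-promoting complex, at 68.8 and 81.7 against 19.5 with siRNA 28 and 14.9 with siRNA 30. The kinase PLK1 and the ubiquitin enzyme UBE2C changed by -1.63 and -1.63. Of the usual proliferation markers TOP2A fell (-1.35). MKI67, at 32.9 and 58.02 FPKM against 13.8 with siRNA 28 and 22.3 with siRNA 30, and PCNA, at 145 and 187 against 79.3 with siRNA 28 and 96.8 with siRNA 30, had log2 changes of -1.27 and -0.90 that did not pass (adjusted p = 0.0626 and 0.0544 in limma). Neither gene had overlapping groups, which was also so for 62.7% of all genes tested. With mitochondrial transcripts left out, 22 replication and 20 mitosis genes were called.

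Recombination and Fanconi repair genes had 7 of 21 lower, led by the exonuclease EXO1 (140.4 and 163 FPKM to 22.7 with siRNA 28 and 18.5 with siRNA 30, -2.83 ± 0.23) and followed by BRCA1 (-1.35) and RAD51AP1 (-1.65), with 0 higher (0 at an unadjusted p under 0.05). Of 17 G1 and E2F regulators 3 fell, MYC, MYBL2 and CDK2, or 8 without siRNA 28; CCND1 and E2F1 did not pass, at 0.55 and -0.76. Among CDK inhibitors CDKN1A, the p21 protein that halts the cycle, rose from 23.9 and 20.98 FPKM to 129.6 with siRNA 28 and 57.1 with siRNA 30 (1.90 ± 0.39, adjusted p = 0.0314), CDKN1B was at 15.7 and 16.6 against 24.2 with siRNA 28 and 54.3 with siRNA 30 without passing (adjusted p = 0.0962), and CDKN2A and CDKN2B were listed at 0 in every library. The wider p53 list gave few calls. Of 27 targets 3 rose, CDKN1A, TP53INP1 (2.17) and TP53I3 (1.37), which at 11.1% is close to the 7.12% of all genes. At an unadjusted p under 0.05 in limma, 9 targets were higher and 0 lower, and the median of the list was 0.45. With both siRNAs 16 of the 27 were above the control mean, against 38.0% of all genes tested. The p53 antagonist MDM2 was at 34.9 and 36.5 FPKM against 27.9 with siRNA 28 and 26.1 with siRNA 30.

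Histone transcripts rose. Of 8 histone genes tested 5 rose and 0 fell (0 were lower at an unadjusted p under 0.05), with a median of 2.11, or 1.32 over the listed genes with no filter on low values. H2BC5 went from 5.26 and 5.52 FPKM to 43.3 with siRNA 28 and 39.6 with siRNA 30 (2.73 ± 0.23, adjusted p = 0.00998) and H2AC6 from 1.74 and 1.81 to 17.7 with siRNA 28 and 22.96 with siRNA 30 (2.93 ± 0.27, adjusted p = 0.0111). H1-2, H2BC4 and H2BC21 were the others. Most histone mRNA of S phase ends without a polyA tail and is largely missed by polyA selection, so these values count the polyadenylated fraction, and histone genes are similar enough for reads to be shared. Of the high mobility group proteins, HMGA1 fell from 609 and 524 FPKM to 138 with siRNA 28 and 127 with siRNA 30 and HMGB1 from 385 and 421 to 163 with siRNA 28 and 159 with siRNA 30, 2 of 9 tested.

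Metabolic supply lines fell in several places. Of 24 nucleotide synthesis genes 11 fell and 0 rose (0 at an unadjusted p under 0.05), with a median of -0.93. The purine enzyme PFAS was at 75.4 and 73.7 FPKM against 22.4 with siRNA 28 and 28.4 with siRNA 30 (-1.53 ± 0.22, adjusted p = 0.0188). PAICS was at 141 and 138 against 51.9 with siRNA 28 and 34.5 with siRNA 30, and IMPDH2, the branch to guanine nucleotides, at 333 and 249 against 100.2 with siRNA 28 and 99.6 with siRNA 30. Of 16 serine and one-carbon enzymes 5 fell, led by the mitochondrial folate enzyme MTHFD2, which was at 254 and 132 FPKM in the controls and 36.7 with siRNA 28 and 30.6 with siRNA 30 (-2.42 ± 0.34, adjusted p = 0.0178). Of 19 genes of the ATF4 amino acid response 5 fell, among them the transporters SLC7A5 (-1.84) and SLC7A1 (-1.68) and asparagine synthetase ASNS (62.8 and 23.8 FPKM against 11.8 with siRNA 28 and 9.64 with siRNA 30). The median of the list was -1.32, or -0.54 without the control numbered 0 and -2.00 without the other. ATF4 itself was at 497 and 247 FPKM and 185 with siRNA 28 and 121 with siRNA 30 and did not pass, the control numbered 0 standing above the other as it did for ASNS and MTHFD2.

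Glycolysis had 3 of 20 lower (15.0%), the glucose-trapping hexokinase HK2 (37.8 and 18.9 FPKM against 1.16 with siRNA 28 and 3.67 with siRNA 30, -3.13 ± 0.48), PFKP (-1.25) and GPI (-1.07). In cholesterol synthesis the sterol reductase TM7SF2 rose from 1.61 and 0.916 FPKM to 19.3 with siRNA 28 and 26.5 with siRNA 30 and no other of 24 genes was called, although 9 would be lower without siRNA 28. In fatty acid synthesis 0 of 12 were called in limma, with 4 lower and 1 higher at an unadjusted p under 0.05. Of 26 cytosolic chaperones 11 fell and 0 rose (0 at an unadjusted p under 0.05), with a median of -0.96, the HSP90 cochaperone PTGES3 going from 581 and 593 FPKM to 226 with siRNA 28 and 234 with siRNA 30 and the chaperonin subunit CCT8 from 176 and 164 to 81.6 with siRNA 28 and 72.7 with siRNA 30. Without mitochondrial transcripts 5 were called. Proteasome subunits had 4 of 36 lower, which at 11.1% is close to the 6.86% of all genes. At an unadjusted p under 0.05 in limma, 13 of the subunits were lower and 0 higher. With both siRNAs 32 of them were below the control mean, as were 38.6% of all genes tested. Their median was -0.43, or -0.21 without mitochondrial transcripts, after which 2 were called. Chaperones of the endoplasmic reticulum had 1 of 23 higher (CRELD2, 35.8 and 32.8 FPKM to 60.3 with siRNA 28 and 79.1 with siRNA 30), a smaller share than the 7.12% of all genes, and 0 lower (0 at an unadjusted p under 0.05). Their median was 0.30, or 0.14 without the control numbered 1 and 0.15 without siRNA 30.

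Of the 80 listed genes that rose, 26 belonged to the adhesion and matrix lists. Of 20 integrins and laminins 10 rose and 0 fell (0 at an unadjusted p under 0.05), with a median of 1.12, and 18 were above the control mean with both siRNAs, against 38.0% of all genes tested. ITGB4, the integrin subunit that anchors epithelial cells to laminin (chr17:73717408-73753899 in GRCh37), was at 0.958 and 0.822 FPKM in the controls and 38.8 with siRNA 28 and 27.2 with siRNA 30 (4.15 ± 0.29, adjusted p = 0.00601 in limma). Being below 1 FPKM in both controls, ITGB4 passed the filter only through the siRNA libraries, so its p-value is not separate support for the rise. The laminin receptor ITGA3 was at 4.25 and 3.12 and 94.9 with siRNA 28 and 21.8 with siRNA 30, and the laminin chains LAMA5 at 39.99 and 41.4 and 214 with siRNA 28 and 179 with siRNA 30 and LAMB1 at 86.1 and 70.1 and 314 with siRNA 28 and 273 with siRNA 30. The controls were close together for all 4, and the siRNAs differed most for ITGA3. VTN, the adhesive plasma protein vitronectin, went from 3.76 and 4.25 FPKM to 51.2 with siRNA 28 and 86.5 with siRNA 30 (3.76 ± 0.31, adjusted p = 0.00965).

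Of 22 mesenchymal and matrix genes 7 rose and 0 fell, with 3 lower at an unadjusted p under 0.05. The metalloproteinase inhibitor TIMP2 was at 12.7 and 20.4 FPKM against 109 with siRNA 28 and 105 with siRNA 30 (2.65 ± 0.27, adjusted p = 0.012), TIMP1 at 341 and 237 against 799 with siRNA 28 and 842 with siRNA 30, and the contractile actin ACTA2 at 7.92 and 10.6 against 27.5 with siRNA 28 and 26.2 with siRNA 30. Vimentin (VIM), the intermediate filament of mesenchymal cells, did not pass, at 1095 and 1198 and 756 with siRNA 28 and 1449.8 with siRNA 30. Epithelial genes had 2 of 16 higher (12.5%, close to the 7.12% of all genes), the junction proteins JUP (121 and 92.8 FPKM to 379 with siRNA 28 and 527 with siRNA 30) and PKP2 (2.53 and 1.60 to 6.27 with siRNA 28 and 5.23 with siRNA 30). Of 26 genes of TGF-beta and BMP signalling 5 rose and 0 fell (0 at an unadjusted p under 0.05), led by LTBP3, which stores latent TGF-beta in the matrix, from 14.3 and 18.4 FPKM to 84.3 with siRNA 28 and 70.4 with siRNA 30, with SMAD3 from 32.4 and 42.4 to 98.00 with siRNA 28 and 80.2 with siRNA 30. PMEPA1, a feedback inhibitor of this pathway outside the list, rose from 3.49 and 1.30 FPKM to 73.2 with siRNA 28 and 30.3 with siRNA 30. Coagulation and complement regulators had 7 of 18 higher and 2 lower: the urokinase receptor PLAUR rose from 20.1 and 15.9 FPKM to 95.9 with siRNA 28 and 82.00 with siRNA 30 and its ligand PLAU from 3.42 and 2.61 to 18.5 with siRNA 28 and 17.04 with siRNA 30, while F2RL2 and the complement protease C1S (-1.99) fell.

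Lysosome and autophagy genes rose in 14 of 43 cases and fell in 2, with a median of 0.68. Progranulin, GRN, was at 117 and 99.7 FPKM against 327 with siRNA 28 and 408 with siRNA 30 (1.75 ± 0.24, adjusted p = 0.0168), and the tetraspanin CD63 of late endosomes at 272 and 263 against 803 with siRNA 28 and 877 with siRNA 30 (1.65 ± 0.23, adjusted p = 0.0178). Acid sphingomyelinase SMPD1 (1.61) and the autophagy protein WIPI1 (1.37) rose too, and the 2 that fell were SQSTM1 and the galactosidase GLA (-1.47). The coat proteins of early secretory vesicles had 0 of 19 called in limma and 1 higher at an unadjusted p under 0.05.

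Interferon-stimulated genes rose in 8 of 36 cases and fell in 0 (0 lower by an unadjusted p under 0.05), with a median of 0.89. The antigen-presenting HLA-B was at 20.8 and 20.4 FPKM against 71.2 with siRNA 28 and 122 with siRNA 30, the signal transducer STAT2 at 5.57 and 8.01 against 23.3 with siRNA 28 and 18.8 with siRNA 30, and OAS1, a sensor of double-stranded RNA, at 51.7 and 52.4 against 103 with siRNA 28 and 164 with siRNA 30. As a list the median was 1.21 with siRNA 30 and 0.40 with siRNA 28, and the number of genes called was 21 without siRNA 28 and 5 without siRNA 30. HLA genes are similar to each other, so reads may be shared between them. Feedback inhibitors of MAPK signalling had 5 of 15 higher, including the ERK phosphatase DUSP6 (34.5 and 32.00 FPKM to 279 with siRNA 28 and 148 with siRNA 30, 2.58 ± 0.32), DUSP1 (35.2 and 14.3 to 121 with siRNA 28 and 100.7 with siRNA 30) and SPRY4 (12.99 and 12.7 to 71.4 with siRNA 28 and 33.4 with siRNA 30), and DUSP5 fell (-1.46). Targets of YAP and TEAD had 5 of 21 higher, among them CDC42EP3 (12.6 and 11.5 FPKM to 109 with siRNA 28 and 72.3 with siRNA 30), NT5E (8.50 and 10.5 to 45.8 with siRNA 28 and 41.3 with siRNA 30) and CCN1 (13.5 and 10.9 to 39.1 with siRNA 28 and 39.5 with siRNA 30), and ASAP1 fell (-1.33). Of the AP-1 and C/EBP factors FOSL1 (-2.38), BATF3 (-1.26) and CEBPB (-1.50) fell and JUNB rose (1.69), out of 11. Of 9 ERBB receptors and ligands only NRG4 was called.

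**Figure D3:**
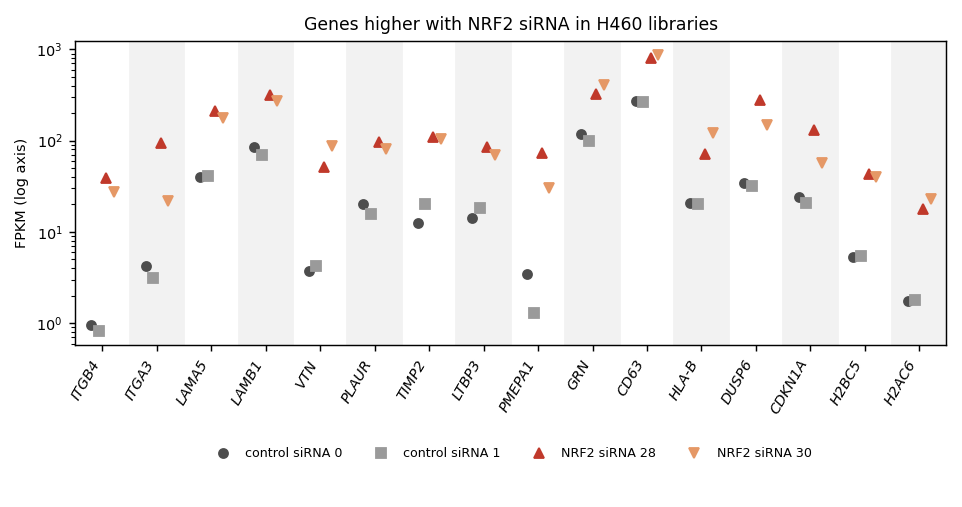
FPKM of 16 genes that rose with NRF2 siRNA in each of the 4 H460 libraries on a log axis, with grey symbols for control siRNA and coloured symbols for siRNA 28 and 30. Both coloured symbols lie above both grey ones for every gene; ITGB4 starts below 1 FPKM in the controls and CD63 ends at 803 and 877 FPKM.

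Inflammatory cytokines moved in both directions and differed between the controls. Of 18 genes 5 fell and 1 rose, and the median of -0.60 turned to 0.003 without the control numbered 0 and was -1.27 without the other. IL6 was at 502 and 142 FPKM in the controls and 21.2 with siRNA 28 and 32.9 with siRNA 30 (-3.29 ± 0.57, adjusted p = 0.0233), CXCL3 at 88.5 and 13.1 and 1.84 with siRNA 28 and 2.36 with siRNA 30 (-3.53 ± 0.79, adjusted p = 0.0368) and CXCL1 at 723 and 489.9 and 193 with siRNA 28 and 177 with siRNA 30 (-1.68 ± 0.27, adjusted p = 0.0215). The control numbered 0 was several times higher than the other for IL6 and CXCL3, and both siRNA values were lower still. CXCL8, another neutrophil attractant, was at 631 and 133 FPKM and 427 with siRNA 28 and 86.2 with siRNA 30, so its groups overlapped. ZC3H12A, an RNase that degrades cytokine mRNAs, fell from 24.7 and 18.8 to 4.94 with siRNA 28 and 3.83 with siRNA 30, and IL18 rose from 3.09 and 1.60 to 12.8 with siRNA 28 and 14.4 with siRNA 30.

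Other genes with the largest changes lay outside these lists. MAP2, a microtubule-associated protein of neurons, fell from 71.4 and 58.1 FPKM to 3.93 with siRNA 28 and 5.38 with siRNA 30 (-3.54 ± 0.26, adjusted p = 0.00685). The matricellular protein CCN5 had the largest rise of any protein-coding gene, from 0.593 and 0.858 FPKM to 12.3 with siRNA 28 and 75.95 with siRNA 30 (4.22 ± 0.75, adjusted p = 0.0246), and its siRNA libraries differed several-fold. The transcription factor CREB3L1 rose from 0.199 and 0.0392 FPKM to 8.64 with siRNA 28 and 20.8 with siRNA 30, the orphan receptor GPRC5C from 2.99 and 5.54 to 59.2 with siRNA 28 and 58.3 with siRNA 30, and NOX5, a calcium-activated NADPH oxidase, from 1.35 and 0.348 to 35.7 with siRNA 28 and 9.75 with siRNA 30. CCN5, CREB3L1 and NOX5 were near 1 FPKM or below in the controls, so the added 1 FPKM makes their changes smaller. CCN5 and CREB3L1 were below 1 FPKM in both controls and passed the filter only through the siRNA libraries, so their tests are not separate support for the rise. The imprinted gene MEST (3.26), the matrix protein ABI3BP (3.17) and the serotonin receptor HTR1B (3.07) completed the 12 largest rises. Of the 957 genes that rose, 183 were below 1 FPKM in both controls, and of the 922 that fell, 55 were below 1 FPKM in both siRNA libraries. Those genes passed the filter only through the group where they were high.

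The plot of list medians separates the siRNAs. NFE2L2 differed from the control mean by -4.00 with siRNA 28 and by -3.20 with siRNA 30 on the log2(FPKM + 1) scale, as values of single libraries with no replicate check. The 2 siRNAs gave like medians for ribosome biogenesis (-1.16 and -1.25), mitosis (-1.26 and -1.06) and integrins and laminins (1.30 and 1.27). They gave different ones for cytosolic ribosomal proteins (-0.41 and 0.19), cholesterol synthesis (0.13 and -0.75), p53 targets (0.68 and 0.12) and CDK inhibitors (0.57 and 1.43). H2023 and A549 are plotted from their own controls. Their medians were near those of H460 for quinone and carbonyl detoxification (-2.47 in H2023 and -2.26 in A549 against -1.95 in H460) and close to 0 for ribosome biogenesis (-0.13 and -0.23 against -1.21). For DNA replication they were -0.04 and -0.20 against -1.19.

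**Figure D4:**
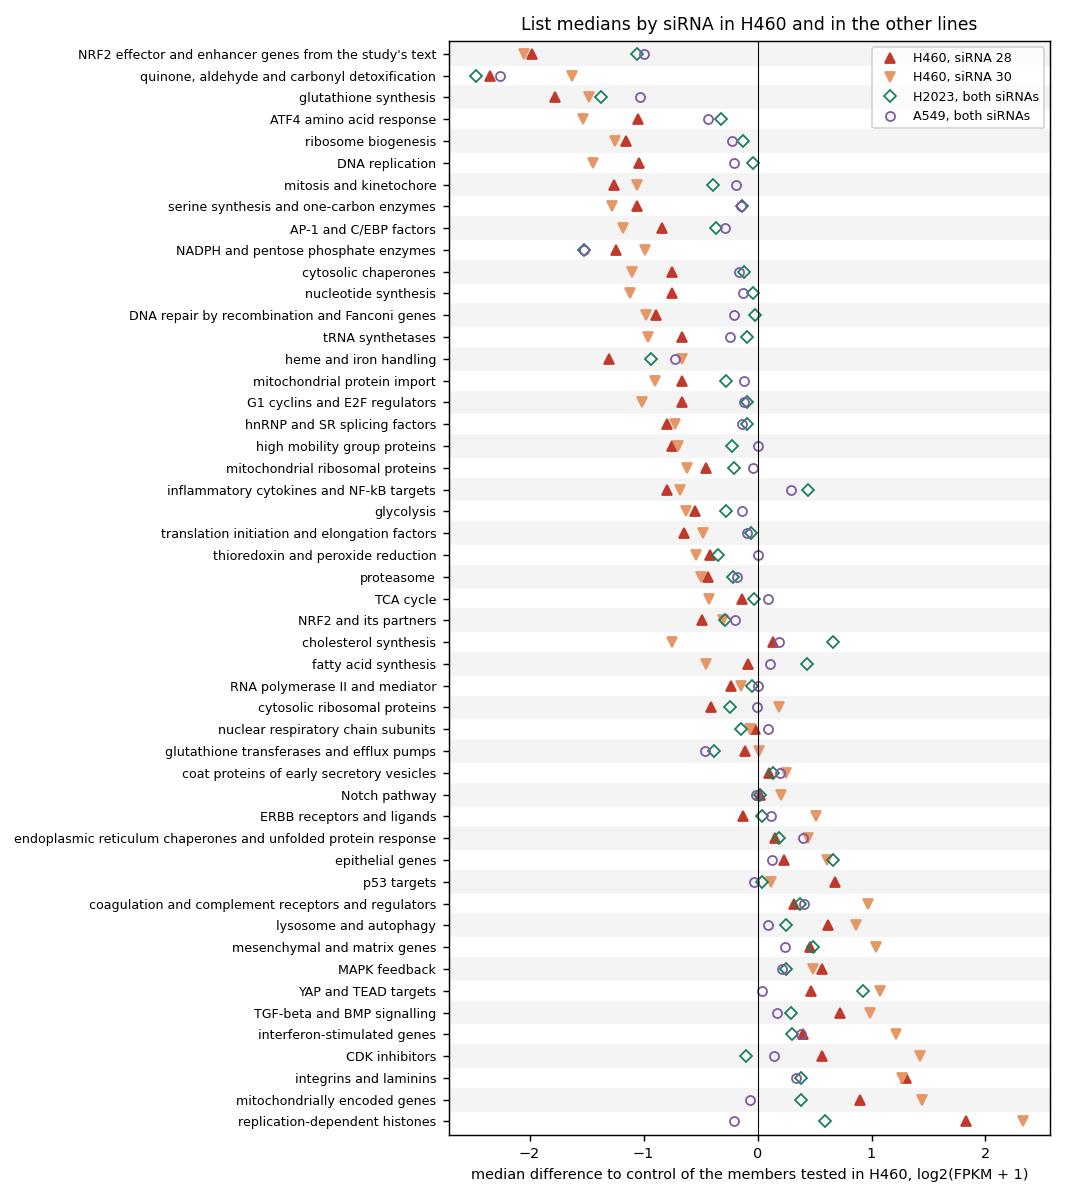
Median log2 difference to the control libraries for the members of each list tested in H460, with filled triangles for H460 with siRNA 28 and siRNA 30 and open symbols for H2023 and A549, each line against its own controls. Quinone and carbonyl detoxification, glutathione and NADPH lists lie left of -0.9 in the 3 lines, whereas ribosome biogenesis lies at -1.16 and -1.25 in H460 and at -0.13 in H2023. The medians of cytosolic ribosomal proteins, respiratory chain subunits and glutathione transferases cross 0 after rescaling without mitochondrial transcripts.

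Whether H460 differed from H2023, the other polyA-selected line, was tested gene by gene as the difference of the effects in 1 fit of the 12 libraries. Of 11571 genes tested, the effect was more negative in H460 for 234 (2.02%) and more positive for 150 (1.30%). The balance depended on the scaling, with 105 and 161 calls without mitochondrial transcripts and 214 in each direction with median of ratios scaling. Without the A549 libraries 2 genes were called, CDC42EP1 and SCARNA17, with 1997 at an unadjusted p under 0.05, and leaving out 1 library gave between 5 and 621 negative and between 5 and 482 positive calls. Ribosome biogenesis had 22 of 50 genes more negative in H460 and 0 more positive. TCOF1 was one of them, with log2 changes of -2.17 in H460 and -0.41 in H2023 (difference -1.77, adjusted p = 0.0316), as was NOLC1, a nucleolar phosphoprotein (-1.57 and 0.34, difference -1.91). MYC changed by -2.93 in H460 and -0.53 in H2023 (difference -2.39, adjusted p = 0.0257). In nucleotide synthesis 6 of 24 were more negative, PRPS2 among them (difference -2.02, adjusted p = 0.02), and in DNA replication 5 of 51, CHAF1A, MCM3, MCM7, PRIM2 and TIPIN.

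Of 90 NRF2 regulators and targets tested for the difference, 1 was more negative in H460 (ABCC4), which is 1.11% against the 2.02% of all genes. More positive were 4 (ABCC2, BACH1, CYP4F3 and GPX4), or 4.44% against 1.30%. CYP4F3, a fatty acid hydroxylase, fell in both lines, by -1.41 in H460 and -3.97 in H2023. For NFE2L2 the difference was 0.26 (adjusted p = 0.743), which does not show that the knockdown was equal. Of 18 integrins and laminins 3 were more positive in H460, ITGB4 (difference 3.27, adjusted p = 0.0143), LAMA5 and LAMB1. The largest differences were found for 10 genes. The more positive were GPRC5C (3.67), ENSG00000268790 (3.45), ITGB4, the transcription factor ATOH8 (3.21) and VTN (3.13). The more negative were ENSG00000272540 (-4.02), the chemokine CXCL5 (-3.67), whose own change in H460 did not pass (-0.20, adjusted p = 0.849 in limma), CDC42EP1 (-3.07), a regulator of actin shape, ANKRD1 (-3.04), a YAP target, and the small Cajal body RNA SCARNA17, which was at 3.21 and 7.59 FPKM in H460 controls and listed at 0 with both siRNAs. CDC42EP1 fell in H460 from 50.6 and 34.2 FPKM to 9.90 with siRNA 28 and 8.68 with siRNA 30 and was at 21.5 and 21.7 FPKM against 43.9 with siRNA 28 and 45.8 with siRNA 30 in H2023. ANKRD1 was at 1.79 and 0.825 FPKM against 3.88 with siRNA 28 and 3.81 with siRNA 30 in H460, where its change did not pass (1.10, adjusted p = 0.061 in limma), and at 1.88 and 1.70 FPKM against 37.9 with siRNA 28 and 61.5 with siRNA 30 in H2023. CXCL1 fell in H460 (-1.68) and was at a log2 change of 1.12 in H2023 (difference -2.80, adjusted p = 0.0489).

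**Figure D5:**
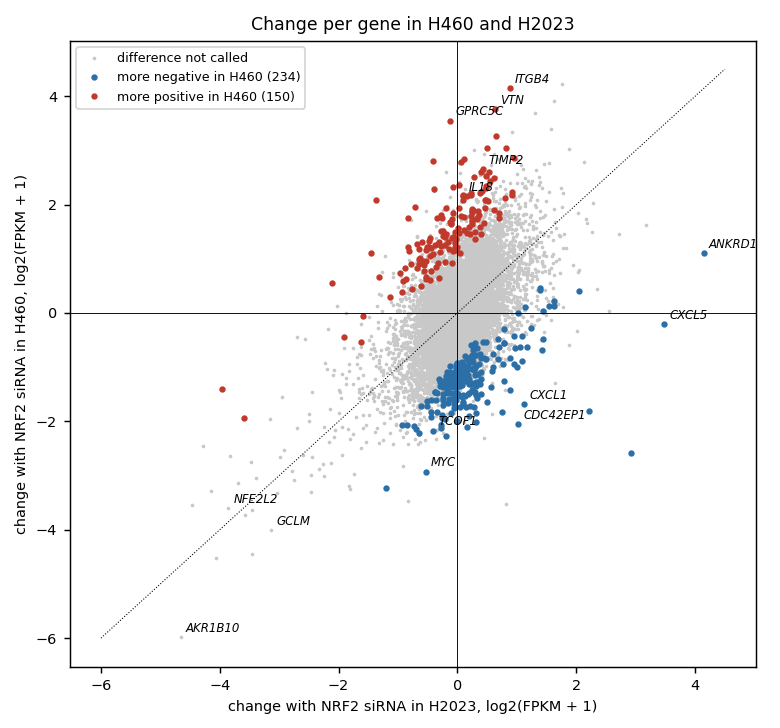
Log2(FPKM + 1) change with NRF2 siRNA in H2023 (horizontal) and H460 (vertical) for 11571 genes, with the dotted line where both are equal. Blue points are the 234 genes more negative and red points the 150 genes more positive in H460; NFE2L2 and GCLM lie near the dotted line, TCOF1 and MYC below it and ITGB4, VTN and GPRC5C above it.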

How the data were processed

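RNA-seq libraries of H460 were analysed from FPKM values per gene that the authors deposited for each library. The study's methods describe paired-end sequencing, TopHat alignment to hg19 and Cufflinks, whereas the submitters' processing notes list STAR 2.5.3a, Cuffnorm, HTSeq and DESeq2 with GRCh37.p13, so the aligner behind the FPKM values is uncertain. The authors' DESeq2 tables hold mean normalised counts, log2 fold changes and p-values and were not used. Of 57815 rows per library 96.1% matched a gene symbol in a GENCODE annotation placed on GRCh37, whose gene coordinates are given, and 5183 H460 values under 1e-06 were set to 0. The fit used limma 3.58.1 in R 4.3.3 on log2(FPKM + 1) for genes with at least 1 FPKM in 2 of the 4 libraries, with a variance trend, Benjamini-Hochberg adjustment and a threshold of 0.05. Changes are differences on that scale, which understates low genes, and errors are SE. The difference from H2023 was fitted over 12 libraries with 6 group means, for genes with 1 FPKM in 2 libraries of every line. The procedure was tested on simulated data with independent noise of equal spread in every library. Those data held no difference between siRNAs, so the test does not cover it. FPKM gives no read depth and no intervals for counts. P-values measure the spread between 2 libraries a group, and the 2 NRF2 siRNAs served as duplicates.

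Alternatives changed the pseudocount, filter, scaling, variance trend, libraries and block. Gene lists held 1359 genes, of which 1346 matched a row. Members and lists were chosen with earlier results of these data known. Genes were named by a rule: NFE2L2, KEAP1 and the effectors taken from the study's text, the 12 protein-coding genes with the largest fall and rise, up to 4 members a list and direction with the smallest p, members that define a list, and the 5 largest differences from H2023 in each direction. Other named genes, such as all members of a short count, AC025678.1, NEAT1 and MALAT1, were chosen after their values were seen. Near-identical paralogs and pseudogenes (AKR1C, ferritin, histone and HLA genes) can share reads.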

Additional observations from a re-analysis of the deposited data

Results flagged for a closer look

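For 50 genes named above, the effect of NRF2 siRNA on the log2(FPKM + 1) scale differed between H460 and H2023 by a test of the difference itself, in 1 limma fit of the 12 libraries with an adjusted p under 0.05. Values are the effect in H460 minus that in H2023, and no explanation was tested. Leaving out the H460 control numbered 0 kept 8 of 51 such calls, counting SCARNA17 described above, leaving out either H2023 control kept 8 or 4, and leaving out the A549 libraries kept 2.

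Among nucleolar genes the differences were -1.77 for TCOF1, -1.91 for NOLC1, -1.43 for NCL, -1.25 for NPM1 and -1.11 for DDX21, with -2.39 for MYC. Replication and mitosis genes gave -1.72 for MCM3, -1.66 for TIPIN, -1.62 for CHAF1A, -1.50 for MCM7, -1.05 for PRIM2, -1.22 for CDC20 and -1.13 for HJURP. Nucleotide synthesis gave -2.02 for PRPS2, -1.65 for PFAS and -1.49 for IMPDH2. In gene expression and mitochondria the values were -1.53 for EIF3J, -1.17 for SRSF7, -1.14 for HNRNPD, -0.9999 for MRPL4 and -1.12 for TOMM40. The amino acid transporter SLC7A1 gave -1.62, the chromatin protein HMGA1 -1.36, CXCL1 -2.80, CXCL5 -3.67, ANKRD1 -3.04, CDC42EP1 -3.07, the drug efflux pump ABCC4 -1.36 and ENSG00000272540 -4.02.

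Effects were more positive in H460 for the adhesion genes ITGB4 (3.27), VTN (3.13), LAMA5 (1.32), LAMB1 (1.29), TIMP2 (2.23), PLAUR (1.83) and LTBP3 (1.26). The same held for GPRC5C (3.67), ATOH8 (3.21), MEST (2.61), ENSG00000268790 (3.45), IL18 (2.07), OAS1 (1.91), GRN (1.41) and TP53I3 (1.39). NEAT1 (2.14) and MALAT1 (1.82) were also among them. Of the NRF2 lists, CYP4F3 (2.56), the efflux pump ABCC2 (1.53), BACH1 (1.43) and the lipid peroxidase GPX4 (1.23) differed in this direction. Groups held 2 libraries, so no library could be tested as standing apart from its group.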

How the results depend on the processing

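Each group held 2 libraries, and a leave-one-out fit assumes that the lone library varies like the other group. Leaving out 1 library gave between 1 and 1478 lower and between 0 and 1332 higher genes in H460, with the extremes at a control and at siRNA 28. Lists with 20% or more of their members lower numbered between 0 and 28, and higher between 0 and 11. With no filter on low values 0 genes were lower and 0 higher in limma, with 5603 of 29735 at an unadjusted p under 0.05, and 0 lists passed in either direction. Rescaling without mitochondrial transcripts gave 584 lower genes, and 29.3% of all calls were then lower against 49.1%. The fit of 12 libraries gave 2256 and 2329. A pseudocount of 0.1, a minimum of 5 FPKM, median of ratios scaling and no variance trend kept the H460 counts within 1.5 times. All 1879 called genes kept their sign in every alternative that tested them.

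Whether library numbers pair the samples was checked by the correlation of their deviations (0.16 over 2 pairs), which does not show pairing; with the number as a replicate block, 1530 genes were lower and 1647 higher, and the difference from H2023 gave 192 and 157.

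Of 173 named genes with a call, 16 lost it without mitochondrial transcripts, 6 with a pseudocount of 0.1, 10 without a variance trend, 7 without siRNA 28 and 21 without siRNA 30; none turned. The sign of a list's median turned for the glutathione transferases, cytosolic ribosomal proteins and respiratory chain (without mitochondrial transcripts, 0.15, 0.11 and 0.15), for the glutathione transferases and cytosolic ribosomal proteins also without siRNA 28 (0.01 and 0.19), for inflammatory genes (without control 0, 0.003), for cholesterol synthesis (without siRNA 30, 0.13), AP-1 and C/EBP factors (no filter, 0.01) and ERBB genes (without control 1 or siRNA 30, -0.13). Without mitochondrial transcripts 11 medians became over 1.5 times smaller in size with the sign kept, all negative, and 4 became over 1.5 times larger, all positive. Counts in a list that moved by over 1.5 times and by at least 2 genes were as follows. Without siRNA 28 the lower genes numbered 17 in nucleotide synthesis, 8 in serine enzymes, G1 regulators and tRNA synthetases, 11 in the proteasome and in initiation factors, 6 in polymerase II subunits, 4 in high mobility group proteins and fatty acid synthesis, 9 in cholesterol synthesis, 5 in the TCA cycle, 28 in mitochondrial ribosomal proteins, 13 in import, 3 in the respiratory chain and inflammatory genes and 2 in p53 targets. Higher genes then numbered 21 in interferon-stimulated genes, 11 in mesenchymal genes, 9 in TGF-beta signalling and YAP targets, 5 in epithelial genes, 4 in the respiratory chain, 3 in CDK inhibitors and endoplasmic reticulum chaperones and 2 in Notch and mitochondrially encoded genes. Without siRNA 30 lower genes numbered 3 in ATF4, inflammatory and Notch genes, 2 in cytosolic ribosomal proteins and mesenchymal genes and 1 in AP-1 and C/EBP factors, initiation factors and tRNA synthetases, and higher ones 5 in p53 targets and interferon-stimulated genes. Without mitochondrial transcripts lower genes numbered 20 in mitosis, 7 in mitochondrial ribosomal proteins, 5 in cytosolic chaperones, 3 in splicing factors and serine enzymes, 2 in import and the proteasome, 1 in polymerase II subunits, initiation factors and tRNA synthetases and 0 in glutathione transferases, and higher ones 9 in TGF-beta signalling (9 also with median of ratios scaling), 5 in the respiratory chain and 4 in epithelial genes. The cause was not tested.

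For the difference from H2023, more negative and more positive calls numbered 2 and 0 without A549 (1997 at an unadjusted p under 0.05 in limma), 330 and 278 with no filter, 105 and 161 without mitochondrial transcripts and 214 and 214 with median of ratios scaling. Leaving out 1 library gave between 5 and 621 and between 5 and 482. FPKM values carry no read counts, so counting error for low genes is unknown.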

Other observations

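Of 2 neuroendocrine markers that passed the filter, 1 rose. Synaptophysin, SYP, rose from 1.23 and 0.914 FPKM to 5.77 with siRNA 28 and 7.08 with siRNA 30 (log2 change 1.84 ± 0.27, adjusted p = 0.0189 in limma), while chromogranin A, CHGA, was at 14.5 and 21.1 FPKM in the controls and 7.77 with siRNA 28 and 2.88 with siRNA 30 without passing (adjusted p = 0.052). The groups of neither gene overlapped, as in 62.7% of all genes tested. These genes were examined only as a check of identity.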
